A study of Danio rerio with 6 samples.

Results

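The transcripts described here are the 6 embryonic globins *hbae1.1*, *hbae3*, *hbae5*, *hbbe1.1*, *hbbe2* and *hbbe3*, together with 4 genes of red blood cell precursors, *alas2*, *gata1a*, *slc4a1a* and *tfr1a*. These 10 genes were picked by name, for their known function, out of the 32520 genes in the deposited tables, by a rule that uses no measured value. Earlier results of these data were known when the genes were chosen. All 10 were found, and all 10 were among the 22762 genes that passed the filter on low counts. RNA sequencing was performed on 3 pools of homozygous *dgat2* mutants (*dgat2* sa13945/sa13945) and 3 pools of WT embryos, each pool holding 6 embryos at 3 days post fertilization (dpf). The sa13945 allele is a nonsense mutation in the second exon of *dgat2*, which encodes a triacylglycerol synthesis enzyme, and it was made by chemical mutagenesis, so the line may also carry other mutations. Both genotypes came from in-crosses of heterozygous fish. The embryos were sorted by yolk opacity, heads and tails were cut off, and these cut portions were used for genotyping. What remained was the mid-section, with the yolk sac, the yolk syncytial layer (YSL) and the dorsal musculature. Clutches 2, 3 and 4 each gave 1 mutant pool and 1 WT pool, and the 3 values of a genotype are given below in that order of clutches.

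Haemoglobin carries oxygen in red blood cells and is built from alpha and beta globin chains, each of which holds a haem group. Zebrafish express one set of globin genes in embryos and larvae and another in adults, and alpha and beta genes lie side by side in their genome. Gata1a is the transcription factor that drives red cell differentiation, Alas2 makes the first committed step of haem synthesis in red cells, Tfr1a brings in iron bound to transferrin, and Slc4a1a is band 3, the anion exchanger of the red cell membrane. At this stage blood circulates over the yolk before it returns to the heart, so a mid-section contains circulating blood as well as tissue.

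The libraries held 45958694 to 59166585 counts, and every mutant library was deeper than every WT library. The *dgat2* transcript had 1149, 514 and 1270 counts in the mutants, against 1328, 783 and 209 counts in WT. These values overlapped, so the *dgat2* count did not check the genotype labels. The paper likewise found no loss of the sa13945 transcript by qPCR and in situ hybridization, and no *dgat2* difference in its RNA sequencing. All 15 skeletal muscle markers and all 17 YSL and hepatocyte markers found in the table were detected. The muscle markers summed to 114051 to 117391 CPM (counts scaled to a common library size) in the mutants and to 115025 to 126454 CPM in WT, and the YSL and hepatocyte markers to 13906 to 17256 CPM in the mutants and 9720 to 19563 CPM in WT. Of the other cell types, the 12 pancreatic acinar markers found summed to 1400, 233 and 642 CPM in the mutants, against 1005, 193 and 191 CPM in WT, and the mutant pool was the higher one in every clutch. All 11 acinar markers tested had a log2 fold change above 0, with a median of 0.86, whereas 48.2% of all genes tested lay above 0. With clutch as a block in edgeR, 1 of the 11 passed an adjusted p of 0.05, against 0.338% of all genes tested. The 12 epidermal markers summed to 13481, 15834 and 13706 CPM in the mutants, against 16825, 18840 and 16095 CPM in WT, and the WT pool was the higher one in every clutch. Of these 12 epidermal markers, 1 had a log2 fold change above 0, with a median of -0.25. Of the 15 muscle markers, 2 lay above 0, with a median of -0.08. No epidermal or muscle marker passed an adjusted p of 0.05 in edgeR with clutch as a block. Mitochondrial genes took 5.67% to 6.34% of the counts in the mutants and 4.83% to 6.73% in WT. The part of these differences in the red cell values was not tested.

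The first comparison asked whether any of the 10 genes differed between *dgat2* mutants and WT. None of them passed an adjusted p of 0.05 in edgeR's quasi-likelihood test (0 of 10, with an adjusted p of 1 for each), and 0 of 10 had an unadjusted p under 0.05. Of all genes tested, 3 (0.0132%) passed the adjusted threshold and 5.2% had an unadjusted p under 0.05. When clutch entered edgeR as a block, 0 of the 10 genes and 0.338% of all genes passed, and with DESeq2 0 of the 10 genes and 0.669% of all genes passed. For each of the 10 genes the values of the genotypes overlapped, whereas they did not overlap for 9.79% of all genes. The median log2 fold change of the 10 genes was 0.14, and 8 of them lay above 0. For all genes tested the median was -0.01, and 48.2% lay above 0. RNA from a pool of mid-sections reflects both the number of red cells caught and the RNA in each cell, and these cannot be told apart here.

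The share of each library taken by the globins gives one value per pool. The 6 embryonic globins took 0.161%, 0.240% and 0.139% of the counts in the mutants, against 0.185%, 0.166% and 0.140% in WT. The counting error was small at this depth. The Wilson 95% interval was 0.238% to 0.241% in the highest library, the mutant pool of clutch 3, and 0.138% to 0.140% in the lowest, the mutant pool of clutch 4. The interval of the WT pool of clutch 4, 0.139% to 0.141%, overlapped that of the mutant pool of clutch 4, so counting error did not separate the 2 lowest pools. The shares averaged 0.180 ± 0.0528% in the mutants and 0.163 ± 0.0226% in WT (SD, n = 3), a difference of 0.0164 percentage points that was within the spread among pools (p = 0.9 by a two-sided exact permutation test, which cannot go below 0.1 with 3 pools on each side).

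Within clutches the direction of the globin share was mixed. The mutant pool minus the WT pool was -0.0241, 0.0740 and -0.000542 percentage points in clutches 2, 3 and 4. Without the mutant pool of clutch 3 the difference between genotypes became -0.0134 percentage points. The unit TPM (transcript abundance scaled to library size) also takes the length of each transcript into account, and globin transcripts are short. On this scale the 6 globins took 0.337%, 0.471% and 0.307% in the mutants, against 0.432%, 0.342% and 0.295% in WT. The TPM shares averaged 0.372 ± 0.0875% in the mutants and 0.356 ± 0.0696% in WT (SD, n = 3; exact permutation test, p = 0.7). By TPM the WT pool of clutch 2 lay closer to the mutant pool of clutch 3 than it did by counts. The scale between the units differed from library to library. With CPM taken over the library total, without the normalization factors of the test, 1 CPM of *hbae3* corresponded to 1.71, 1.53 and 1.80 TPM in the mutants. In WT it corresponded to 1.95, 1.64 and 1.77 TPM.

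**Figure D1:**
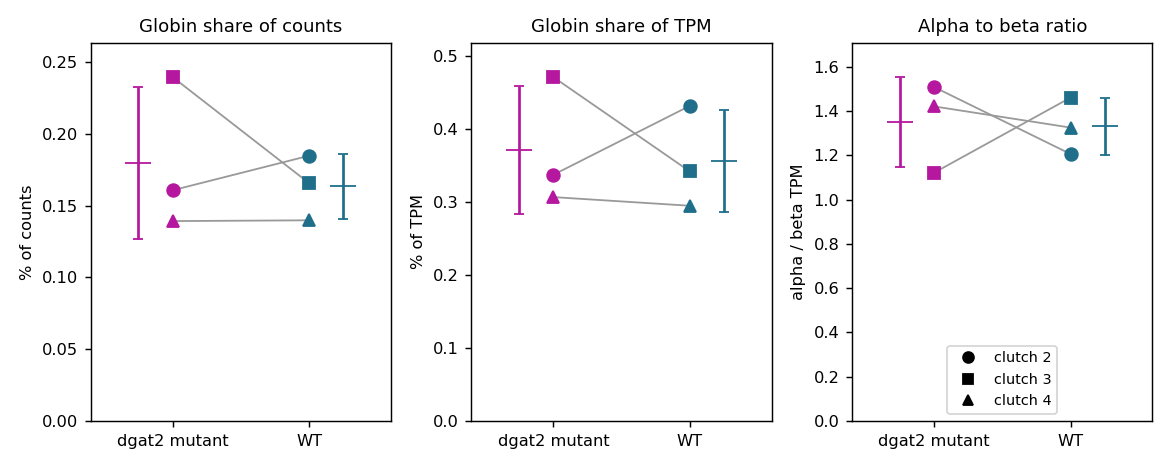
Share of counts (left, %), share of TPM (middle, %) and ratio of alpha to beta globin TPM (right) for the 6 embryonic globins in each pool. Symbols stand for clutches 2, 3 and 4, gray lines join the pools of a clutch, and bars give the mean and SD of 3 pools. The mutant pool of clutch 3 has the highest share of counts at 0.240%, and the lines cross, so no panel shows the same direction in all 3 clutches.

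The levels of the 10 genes spanned more than 3 orders of magnitude per length. *hbbe1.1* was the most abundant, at a mean of 1432 TPM over the 6 libraries and rank 109 of the 22762 genes tested. *hbae3* followed at 1224 TPM (rank 132) and *hbae1.1* at 839 TPM (rank 169). *hbbe1.1* exceeded *hbae3* in 5 of 6 libraries and *hbae3* exceeded *hbae1.1* in 6 of 6, but in both cases the ranges over libraries overlapped. *hbbe2*, at 141 TPM (rank 545), lay below these 3 in every library, and no value of *alas2*, the highest of the other genes, reached the lowest value of *hbbe2*.

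The remaining genes were far less abundant. *alas2* averaged 9.42 TPM over the 6 libraries, *slc4a1a* 6.45 TPM and *tfr1a* 4.74 TPM. *alas2* exceeded *slc4a1a* in 6 of 6 libraries and *slc4a1a* exceeded *tfr1a* in 4 of 6, with overlapping ranges. *hbae5* at 2.22 TPM, *hbbe3* at 1.94 TPM and *gata1a* at 0.841 TPM were the lowest. The ranges of *hbae5* and *hbbe3*, and those of *hbbe3* and *gata1a*, overlapped, so these neighbours were not separated beyond their spread.

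**Figure D2:**
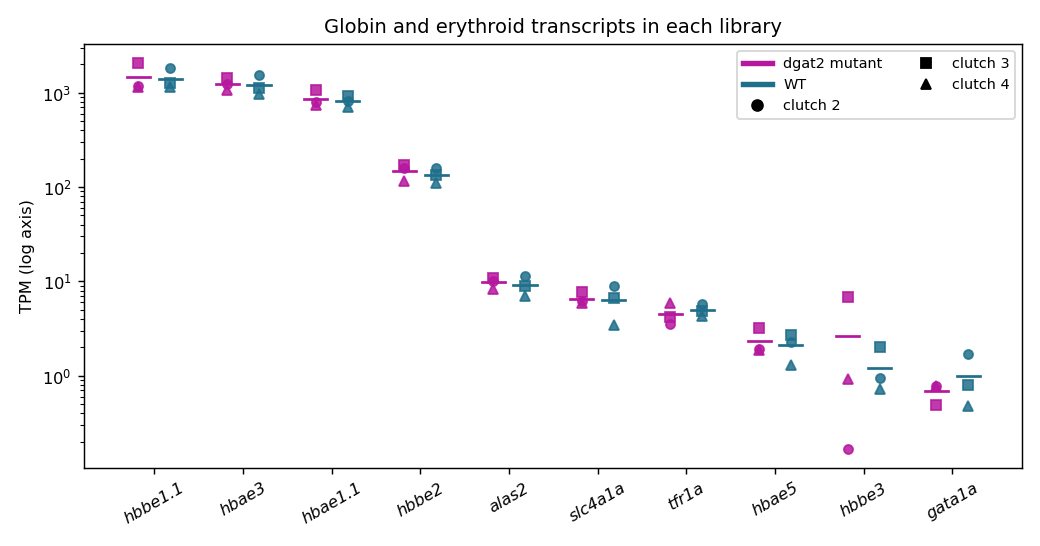
TPM (log axis) of each of the 10 genes in the 3 mutant pools (left of each pair) and the 3 WT pools (right), with symbols for clutches 2, 3 and 4 and a bar at the mean of each genotype. The genes run by mean level, with *hbbe1.1* at 1432 TPM highest and *gata1a* at 0.841 TPM lowest, and the genotypes overlap for every gene.

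Among the alpha globins, *hbae3* (ENSDARG00000079305) had 1241, 1412 and 1069 TPM in the mutants, against 1538, 1110 and 976 TPM in WT. The highest value was that of a WT pool, in clutch 2, and the ranges overlapped. On the normalized count scale used by the test, *hbae3* averaged 747 ± 178 CPM in the mutants and 673 ± 102 CPM in WT (SD, n = 3). This gave a log2 fold change of 0.15 (standard error 0.18, 95% interval -0.27 to 0.57). Within clutches 2, 3 and 4 the log2 differences of CPM were -0.04, 0.44 and -0.00. The direction in clutch 4 turned with the normalization of the test, whose factors were 1.04 for the mutant pool and 0.968 for the WT pool. By TPM, and by counts over the library total, the mutant pool was the higher one there.

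*hbae1.1* (ENSDARG00000089475) had 786, 1077 and 730 TPM in the mutants, against 821, 917 and 704 TPM in WT. By TPM clutch 3 was highest and clutch 4 lowest in both genotypes. The normalized counts of *hbae1.1* averaged 398 ± 114 CPM in the mutants and 366 ± 47.8 CPM in WT (SD, n = 3). The log2 fold change was 0.12 (standard error 0.20, 95% interval -0.33 to 0.57). Within clutches the log2 differences of CPM were 0.12, 0.32 and -0.16. The directions in clutches 2 and 4 turned with the unit. By TPM the mutant pool was the lower one in clutch 2 and the higher one in clutch 4. *hbae5* (ENSDARG00000045142), an alpha gene of another locus, was rare, at 1.93, 3.23 and 1.88 TPM in the mutants, against 2.28, 2.71 and 1.3 TPM in WT. These values came from 43, 76 and 48 counts in the mutants and 45, 57 and 26 counts in WT, and the log2 fold change of 0.19 had a wide 95% interval, from -0.73 to 1.12.

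Among the beta globins, *hbbe1.1* (ENSDARG00000113599) had 1186, 2044 and 1152 TPM in the mutants, against 1799, 1256 and 1157 TPM in WT. One pool of each genotype stood above the other pools, the mutant pool of clutch 3 and the WT pool of clutch 2. The log2 differences of CPM within clutches were -0.42, 0.79 and -0.22. Normalized counts averaged 587 ± 243 CPM in the mutants and 543 ± 85.4 CPM in WT (SD, n = 3). Over the 3 clutches this came to a log2 fold change of 0.11 (standard error 0.26, 95% interval -0.48 to 0.70).

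*hbbe2* (ENSDARG00000045143) had 159, 172 and 115 TPM in the mutants, against 158, 132 and 111 TPM in WT. Clutch 4 was the lowest in both genotypes. Normalized counts averaged 60.7 ± 16.4 CPM in the mutants and 53.1 ± 5.03 CPM in WT (SD, n = 3). The log2 fold change was 0.19 (standard error 0.19, 95% interval -0.25 to 0.63). Within clutches the log2 differences of CPM were 0.18, 0.46 and -0.16, and the direction in clutch 4 turned with the unit, since by TPM the mutant pool was the higher one there.

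*hbbe3* (ENSDARG00000038147) varied most between pools. It had 3, 127 and 17 counts in the mutants, against 13, 33 and 12 counts in WT. The mutants thus held both the highest and the lowest value, and the TPM of the highest library was 40.6 times that of the lowest, whereas the same ratio was 1.53 to 3.57 for the other 9 genes. Relative to depth it averaged 0.916 ± 1.3 CPM in the mutants and 0.397 ± 0.229 CPM in WT (SD, n = 3). The log2 fold change of 1.19 had a standard error of 1.07 and a 95% interval from -1.26 to 3.64. It rested on the mutant pool of clutch 3, without which it was -1.23, and blocking on clutch gave 0.34.

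**Figure D3:**
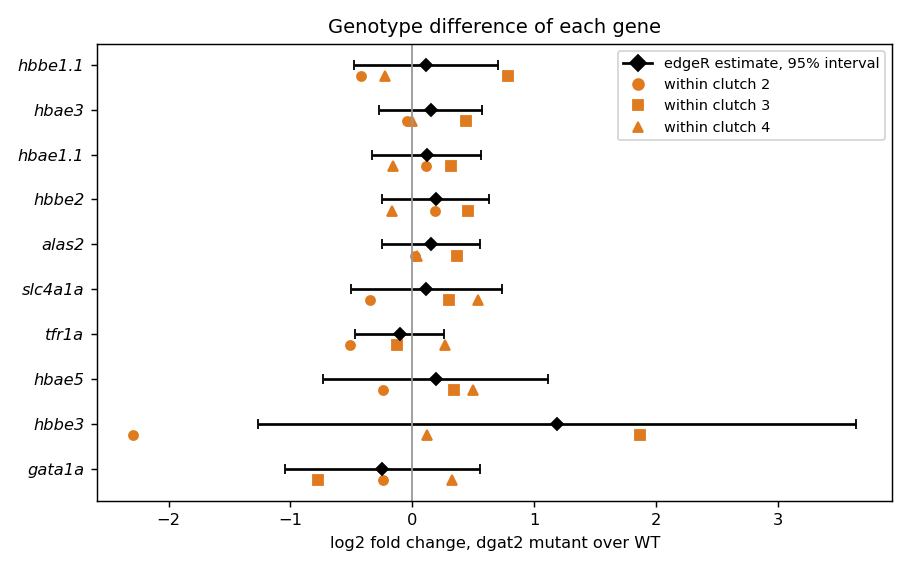
Log2 fold change of each gene, dgat2 mutant over WT. Black diamonds and bars give the edgeR estimate with its 95% interval, and orange symbols below them give the log2 difference of CPM within clutches 2, 3 and 4. Every interval includes 0, and *hbbe3* has the widest, from -1.26 to 3.64.

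Several of these genes have near copies that share reads. *hbbe1.1* lies in a cluster with *hbbe1.2* and *hbbe1.3*, and *hbae1.1* with *hbae1.2* and *hbae1.3*, and the authors' quantification divides shared reads among such copies by an estimate. The counts of single copies are therefore uncertain. *hbbe1.1* took 40.1%, 44.6% and 42.7% of the counts of its 3 copies in the mutants, against 52.5%, 36.4% and 41.1% in WT. The share thus moved most among WT pools. The share of *hbae1.1* among its copies was steadier, at 56.6%, 56.5% and 57.2% in the mutants, against 55.2%, 57.7% and 53.2% in WT.

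Sums over the copies do not depend on how reads were divided within them. The 3 *hbbe1* copies together had 2962, 4591 and 2698 TPM in the mutants, against 3427, 3458 and 2817 TPM in WT. The mutant pool of clutch 3 remained above the other mutant pools, whereas the WT pool of clutch 2 no longer stood apart. The 3 *hbae1* copies together had 1552, 2128 and 1423 TPM in the mutants, against 1665, 1770 and 1489 TPM in WT. With the copies summed before the test, a choice made after seeing the data, the log2 fold change was 0.12 (standard error 0.23, 95% interval -0.40 to 0.64) for *hbbe1* and 0.09 (standard error 0.19, 95% interval -0.35 to 0.53) for *hbae1*. Tested singly, the other copies had log2 fold changes of 0.18 (*hbbe1.2*), 0.10 (*hbbe1.3*), -0.02 (*hbae1.2*) and 0.09 (*hbae1.3*), each with an adjusted p of 1 by edgeR.

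**Figure D4:**
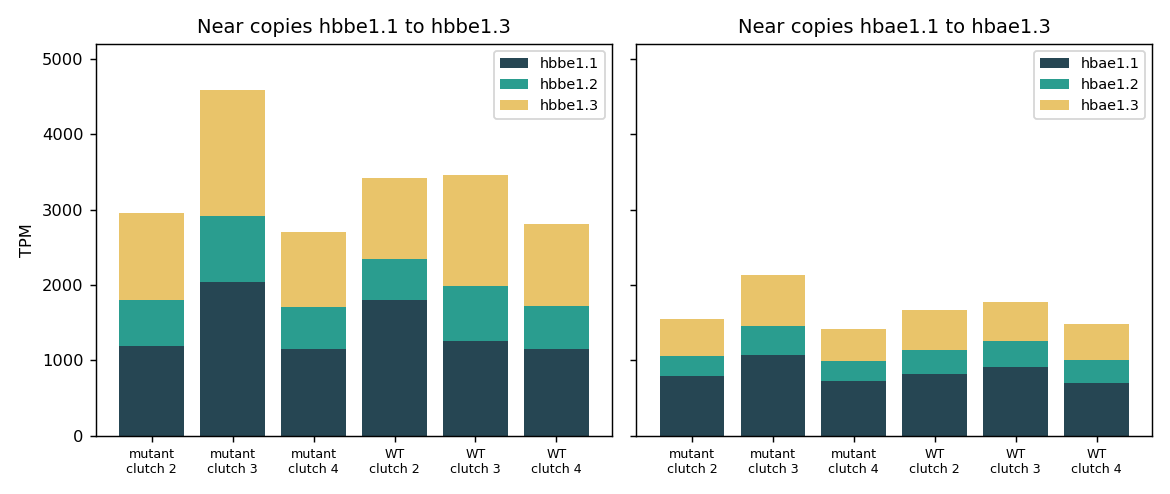
TPM of the near copies *hbbe1.1* to *hbbe1.3* (left) and *hbae1.1* to *hbae1.3* (right), stacked in each of the 3 mutant pools and the 3 WT pools. The *hbbe1* stack is tallest in the mutant pool of clutch 3, at 4591 TPM, and the dark part for *hbbe1.1* is large in the WT pool of clutch 2, where it took 52.5% of the counts of the 3 copies.

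The balance of the chains can be read within a library, since the number of red cells in a pool affects both chains. The summed TPM of *hbae1.1*, *hbae3* and *hbae5* over that of *hbbe1.1*, *hbbe2* and *hbbe3* was 1.51, 1.12 and 1.42 in the mutants, against 1.21, 1.46 and 1.33 in WT. Its mean was 1.35 ± 0.203 in the mutants and 1.33 ± 0.127 in WT (SD, n = 3; exact permutation test, p = 0.9). Among the 3 genes of each chain, 1 led in every library. *hbbe1.1* made up 88.2% to 92.0% of their beta TPM in the mutants and 90.3% to 91.9% in WT, and *hbae3* made up 56.7% to 61.1% of their alpha TPM in the mutants and 54.7% to 65.1% in WT. The ratio above counts only 1 of the near copies of each chain. The 17 rows of blood globins that were found are called all blood globins here, although not every globin symbol looked up was found. With them the ratio was 0.897, 0.744 and 0.888 in the mutants, against 0.895, 0.804 and 0.843 in WT. The alpha chain therefore exceeded the beta chain among the 6 globins and fell short of it among all blood globins, and the difference between genotypes, at -0.00464, turned negative (exact permutation test, p = 0.9).

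The globins lie at 2 loci. By their order in GRCz12tu, *hbbe1.1*, *hbae1.1* and *hbae3* are on chromosome 3, in a run of 13 globin genes that starts with the adult ones and ends with *hbae3*, and *hbae5*, *hbbe2* and *hbbe3* are on chromosome 12 beside *hbae4*. *ba1l*, a gene of the chromosome 3 run, was not searched for by name. The chromosome 12 genes made up 2.76%, 2.23% and 2.27% of the TPM of all blood globins in the mutants, against 2.43%, 2.18% and 2.14% in WT. The mutant pool was higher in each clutch, and the ranges overlapped (exact permutation test, p = 0.5). Paired by clutch, an exact sign-flip permutation test gave p = 0.25, the smallest that 3 pairs allow. *hbae4*, the remaining alpha gene of this locus, had 89, 126 and 105 counts in the mutants, against 102, 131 and 89 counts in WT, and a log2 fold change of -0.21.

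Adult globins were barely detected at 3 dpf. The 6 rows of adult genes found summed to 41, 52 and 41 counts in the mutants, against 39, 22 and 28 counts in WT (exact permutation test, p = 0.3). These rows made up 0.0150% to 0.0311% of the TPM of blood globins in any library. Only the alpha gene *hbaa1*, with 28, 11.2 and 13 counts in the mutants and 8.8, 7.6 and 11 counts in WT, passed the filter, with a log2 fold change of 0.69 and a standard error of 0.56. The alpha gene *hbaa2* had 5, 3 and 12 counts in the mutants and 7, 5 and 8 counts in WT. The beta gene *hbba2* had 2, 11 and 11 counts in the mutants and 13, 7 and 9 counts in WT. Neither separated the genotypes, and nor did *si:ch211-5k11.8*, with 0, 20.8 and 0 counts in the mutants and 10.2, 2.4 and 0 counts in WT. The 2 rows named *hbba1*, an adult beta globin, together had 6, 6 and 5 counts in the mutants and 0 counts in each WT pool. Singly, 1 row had 6, 0 and 1.9 counts in the mutants and the other had 0, 6 and 3.1 counts. Taking 3 counts over the WT group as the limit for a count of 0, the mutant sum was 4.93 times that assumed limit relative to depth. The mutant sum was taken as exact and the spread among pools was left out, so this ratio is no lower bound. An exact permutation test gave p = 0.1, which is as small as this design allows. The sum over both rows was chosen after their values were seen, each row was below the filter of the test, and the adult genes can share reads among themselves.

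*alas2* (ENSDARG00000038643), the red cell enzyme that starts haem synthesis, had 10.2, 10.8 and 8.34 TPM in the mutants, against 11.3, 8.86 and 6.99 TPM in WT. Clutch 4 was lowest in both genotypes. Its normalized counts averaged 26.9 ± 5.46 CPM in the mutants and 24.2 ± 3.76 CPM in WT (SD, n = 3), and the log2 fold change was 0.15 (standard error 0.18, 95% interval -0.25 to 0.56). Within clutches 2, 3 and 4 the log2 difference of CPM was 0.02, 0.37 and 0.04. The direction in clutch 2 turned with the normalization of the test, whose factors were 0.968 for the mutant pool and 1.02 for the WT pool. By TPM, and by counts over the library total, the mutant pool was the lower one there. The counts of the 6 globins for each *alas2* count were 58.8, 75.8 and 64 in the mutants, against 65.1, 67.9 and 71.3 in WT, so the WT values lay within those of the mutants.

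*tfr1a* (ENSDARG00000101322), the transferrin receptor that red cell precursors use for iron uptake, had 3.54, 4.18 and 5.95 TPM in the mutants, against 5.72, 4.82 and 4.27 TPM in WT. The mutant pool was lower in clutches 2 and 3 and higher in clutch 4, with log2 differences of CPM of -0.51, -0.12 and 0.27. Normalized counts averaged 14.3 ± 2.92 CPM in the mutants and 15.4 ± 0.981 CPM in WT (SD, n = 3). It had a log2 fold change of -0.10 (standard error 0.16, 95% interval -0.47 to 0.26).

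*slc4a1a* (ENSDARG00000012881), the band 3 anion exchanger, had 6.17, 7.72 and 5.85 TPM in the mutants, against 8.87, 6.62 and 3.48 TPM in WT. By TPM the 3 mutant pools lay within the range of the WT pools. By CPM the mutant pool of clutch 3, at 32.5, lay above the highest WT pool, at 31.4. Normalized counts averaged 26.1 ± 5.81 CPM in the mutants and 24.1 ± 8.64 CPM in WT (SD, n = 3). Across clutches the log2 fold change was 0.12 (standard error 0.27, 95% interval -0.51 to 0.74), and the log2 differences of CPM within clutches were -0.35, 0.31 and 0.54. The counts of the 6 globins for each *slc4a1a* count were 67.2, 73.7 and 63.3 in the mutants, against 57.7, 63.1 and 99.4 in WT, so the WT pool of clutch 4 had little *slc4a1a* for its globin level.

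*gata1a* (ENSDARG00000013477), the red cell transcription factor, had 67, 40 and 62 counts in the mutants, against 70, 65 and 38 counts in WT. Relative to depth this was 1.01 ± 0.252 CPM in the mutants and 1.2 ± 0.356 CPM in WT (SD, n = 3). These low counts leave a log2 fold change of -0.25 with a standard error of 0.35 and a 95% interval from -1.05 to 0.55. In TPM it was at 0.787, 0.490 and 0.785 in the mutants, against 1.70, 0.802 and 0.477 in WT. The WT pool of clutch 2 stood apart by TPM and not by counts. With CPM taken over the library total, 1 CPM of *gata1a* corresponded to 1.12 TPM there and to 0.614 to 0.749 TPM in the other 5 libraries.

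Other genes linked to red cells, haem or iron were described in 5 lists chosen by function. The lists also hold genes expressed in other tissues, such as *tfa*, which was also counted among the YSL and hepatocyte markers. The medians of the lists are therefore not values of red cells alone. None of the genes in these lists passed an adjusted p of 0.05 in edgeR with genotype as the only term. Of all genes tested, 3 (0.0132%) passed there. With clutch as a block, 1 gene of the membrane list passed, *slc2a1a*, against 0.338% of all genes tested. The share of all genes tested with a log2 fold change above 0 was 48.2%. Of 18 haem synthesis genes, 12 had a log2 fold change above 0, and their median was 0.07. The 3 most abundant were *glrx5*, a glutaredoxin of iron-sulfur cluster assembly, at -0.02, *tmem14ca*, a mitochondrial protein needed for haem synthesis, at -0.00, and *alas1*, the enzyme of haem synthesis in other tissues, at 0.11. Of 22 red cell enzymes and other erythroid genes, 16 lay above 0, with a median of 0.11. They included the peroxidases *prdx2* (0.20) and *gpx1a* (0.16), the glutathione transferase *mgst3b* (0.31) and *hemgn* (0.32), a nuclear protein of blood cells. *mgst3b* and *hemgn* were the only genes of these 22 with an unadjusted p under 0.05, which 5.2% of all genes tested reached. Their adjusted p was 0.95 in edgeR.

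Of 19 erythroid transcription factors, 8 lay above 0, with a median log2 fold change of -0.01. *ldb1a*, a bridging factor of the Gata1 complex, was at -0.17 and the cell cycle factor *e2f4* at -0.00. *klf3*, a transcriptional repressor, had 18, 13.7 and 18.3 TPM in the mutants, against 21.1, 22.9 and 19.9 TPM in WT. These ranges did not overlap, but with a log2 fold change of -0.33 and a standard error of 0.12 *klf3* did not pass (edgeR, adjusted p = 0.87). Within clutches its log2 difference of CPM was -0.03, -0.64 and -0.33. Of 17 genes of iron uptake, export and storage, 12 lay above 0, with a median of 0.12. The most abundant were the plasma iron carrier transferrin, *tfa*, at -0.35, and the ferritin genes *fth1a* and *zgc:56095*, at 0.14 and 0.02.

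*heph*, a copper enzyme that oxidizes exported iron, stood apart in the iron list with the smallest p of that list. It had 6.94, 12.3 and 8.30 TPM in the mutants, against 0.0916, 2.90 and 2.00 TPM in WT, so the genotypes did not overlap. At a log2 fold change of 2.44 and a standard error of 0.82, *heph* did not pass in edgeR (adjusted p = 0.83, or 0.16 in the fit that blocks on clutch). The WT pool of clutch 2 held only 16 counts, and the log2 differences of CPM within clutches were 6.42, 2.17 and 1.84. Without that pool the log2 fold change was 1.88.

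Of 14 genes of the red cell membrane and its cytoskeleton, 7 lay above 0, with a median log2 fold change of 0.00. The 3 most abundant were *rhag*, an ammonium channel of red cells and gills, at 0.06, *tmod4*, an actin capping protein that is also found in muscle, at -0.14, and the water channel *aqp1a.1* at 0.17. *slc2a1a*, a glucose transporter whose human relative is abundant in red cells, differed more. It had 21.6, 42.5 and 76 counts in the mutants, against 90, 159 and 236 counts in WT, and the genotypes did not overlap. The mutant pool was lower in each clutch, with log2 differences of CPM of -2.21, -1.96 and -2.02. The fitted change of -2.02 on the log2 scale, with a standard error of 0.46, did not pass in edgeR (adjusted p = 0.42) but did in the fit that blocks on clutch (-2.05, adjusted p = 0.024) and with DESeq2 (adjusted p = 0.0029). *slc2a1a* is expressed in many tissues, and the cells behind this difference were not tested.

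**Figure D5:**
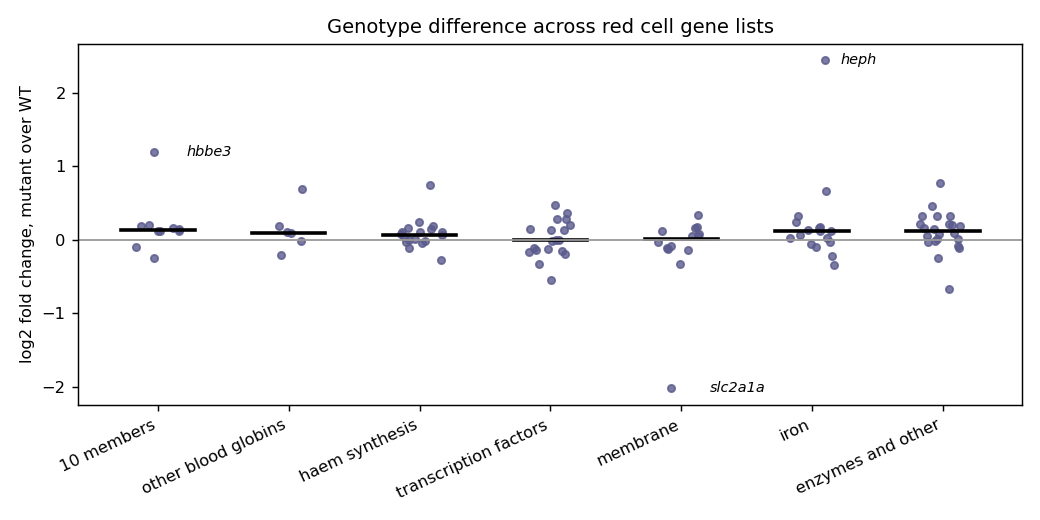
Log2 fold change, mutant over WT, of the 10 genes, of the other blood globins that were tested and of the 5 red cell lists; each point is a gene and each bar a median. The medians lie between -0.01 and 0.14, and *slc2a1a* (-2.02), *heph* (2.44) and *hbbe3* (1.19) lie farthest from 0.

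How the genes varied together across the 6 libraries was described with the correlation of log2 CPM with that of the summed 6 globins, over the 10263 genes with a mean of at least 10 CPM. The libraries share clutches in pairs, and the sum contains the globins themselves, so these values carry no test. Across all these genes the median r was -0.01, and 0.39% of genes had an r above 0.9. *alas2* reached an r of 0.90 and *slc4a1a* 0.77, whereas *tfr1a* was at -0.25. Of the other lists, the median r was 0.50 for 8 membrane genes, 0.03 for 12 iron genes, -0.09 for 15 enzymes and other erythroid genes, -0.14 for 7 transcription factors and -0.29 for 12 haem synthesis genes. Markers of other cells varied in both directions. The median r was 0.64 for 4 endothelial markers, 0.32 for 17 YSL and hepatocyte markers and 0.29 for 11 epidermal markers. It was -0.09 for 15 skeletal muscle markers and -0.13 for 8 pancreatic acinar markers. The 1 macrophage and neutrophil marker above the limit of 10 CPM was at -0.28, and the 1 thrombocyte marker at 0.19. The 3 most abundant haem synthesis genes were at -0.80 (*tmem14ca*), -0.54 (*glrx5*) and -0.28 (*alas1*).

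The genes most like the summed globins, other than globins, were *mtx1a* (r = 0.98 over 6 libraries), *nabp1a* (0.97), ENSDARG00000115978 (0.97), *cxcl20* (0.96) and *apoa4a* (0.96). They were picked as the highest among the 10263 genes, and *mtx1a* spanned only 9.75 to 12.3 CPM. The 4 other blood globins above the limit of 10 CPM had a lower median r of 0.77, with 0 of them above 0.9. *mtx1a* encodes a protein of the mitochondrial outer membrane, *cxcl20* a chemokine and *apoa4a* an apolipoprotein. *apoa4a* had 16.7, 25 and 12 CPM in the mutants, against 15.4, 15.1 and 11.5 CPM in WT. The mutant pool of clutch 3 was the highest, as for the globins, but *apoa4a* was picked for this likeness.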

How the data were processed

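Poly(A)-selected RNA from 6 pools was sequenced with a kit that does not mark strand. The authors trimmed adapters and filtered out reads of ribosomal RNA before alignment to GRCz11 with STAR 2.7.9a and quantification with Salmon 1.10.1. They deposited estimated counts per gene, not normalized, and TPM, scaled for transcript length and library size. Genes were matched by the names in the deposited tables, and 21 list genes by another spelling or by identifier in a gene name table. Neighbours at the globin loci came by name from an annotation of GRCz12tu, from which no coordinates were taken.

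The counts were rounded and tested with edgeR 4.0.16 (R 4.3.3; TMM factors, filterByExpr, quasi-likelihood test, genotype as the only term, Benjamini-Hochberg over 22762 genes). Each standard error was taken as the size of the log2 fold change divided by the root of its F statistic. The study's methods name DESeq2, used here as an alternative (1.42.0), as were limma 3.58.1 on log2 TPM (with a pseudocount of 1 or of 0.1, and genes kept at 1 TPM or more in 3 or more libraries), other size factors and filters, the clutch as a block, and each library left out. Single values per library were compared with exact permutation tests (scipy 1.17.1). Likeness to the globins used log2(CPM + 0.5). The replicates are pools from separate clutches. Depth leaves little counting error for abundant genes, so the spread between pools limits precision, and the Wilson intervals cover counting error only.

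Pools of the same clutch number are from the same cross, so the labels pair them. Their deviations from the genotype means correlated at 0.35, 0.31 and 0.19 across genes, against -0.30 to 0.03 for pools of different clutches. Named genes are the 10 genes, every other blood globin found, the 3 most abundant genes of each red cell list and any gene there with an adjusted p under 0.05 with or without the block, the 5 genes of these lists with the smallest p, and the 5 genes most like the summed globins. The genes and lists were chosen with earlier results of these data known.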

Additional observations from a re-analysis of the deposited data

How the results depend on the processing

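Of the 10 genes, 0 passed an adjusted p of 0.05 under any of 16 alternatives, although *hbae5* and *hbbe3* were not tested at the filter of 1 CPM, nor *hbbe3* and *gata1a* with limma. For all genes the count was 3, against 77 with the clutch as a block in edgeR, 160 with DESeq2, 358 with DESeq2 and the block, 9 without the filter on low counts, and 6 with limma at either pseudocount; leaving out 1 library gave 0 to 4. In edgeR the clutch block changed the call of *slc2a1a* alone among the named genes, to an adjusted p of 0.024. With DESeq2 this gene passed without the block (0.0029) and with it (7e-06). The standard errors and intervals printed for the 10 genes are from edgeR without the block. With the block the standard error was lower for each of the 10. It went from 0.20 to 0.12 for *hbae1.1*, from 0.18 to 0.12 for *hbae3* and from 0.27 to 0.17 for *slc4a1a*. For *tfr1a* it went only from 0.159 to 0.158. Paired by clutch, the globin share of counts, the TPM share and the chain ratio gave exact sign-flip permutation p of 1, 0.75 and 1, where 3 pairs allow none under 0.25.

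Leaving out 1 library moved the genotype difference across 0 for many values. The difference ranged from -0.0134 to 0.0368 percentage points for the globin share of counts, -0.0342 to 0.0534 for the TPM share and -0.0595 to 0.134 for the chain ratio, which was -0.00464 with all blood globins. The log2 fold change ranged from -0.13 to 0.28 for *hbae1.1*, -0.0295 to 0.31 for *hbae3*, -0.15 to 0.42 for *hbae5*, -0.28 to 0.31 for *hbbe1.1*, -1.23 to 1.77 for *hbbe3*, -0.15 to 0.35 for *slc4a1a* and -0.26 to 0.0331 for *tfr1a*. Among other genes it ranged from -0.27 to 0.13 for *hbae1.2*, -0.17 to 0.27 for *hbae1.3*, -0.10 to 0.36 for *hbbe1.2*, -0.21 to 0.30 for *hbbe1.3*, -0.0934 to 0.0599 for *glrx5*, -0.0562 to 0.10 for *tmem14ca*, -0.20 to 0.10 for *e2f4*, -0.0252 to 0.16 for *rhag* and -0.0232 to 0.0812 for *zgc:56095*. *tmem14ca* was also above 0 with library totals (0.0115) and with DESeq2 and the block (0.00028), *e2f4* with library totals (0.0110), and *zgc:56095* was at -1.8e-05 with limma at the lower pseudocount. Where they were tested, *hbbe2*, *alas2* and *gata1a* had 1 direction, but with 1 library left out they ranged from 0.02 to 0.40, 0.02 to 0.31 and -0.47 to -0.06, close to 0 at one end. Without the mutant pool of clutch 4 *hbbe2* was the single gene of the 10 with an unadjusted p under 0.05. The causes were not tested.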

Other observations

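Globins outside the blood were measured in the same libraries. *mb*, or myoglobin, an oxygen-binding protein of muscle, had 4.99, 5.30 and 10.1 TPM in the mutants, against 9.27, 9.58 and 12.1 TPM in WT. The mutant pool was lower in each clutch, with log2 differences of CPM of -0.67, -0.84 and -0.46, although the ranges overlapped. The log2 fold change was -0.63 (standard error 0.26), and it did not pass edgeR's adjusted threshold (adjusted p = 0.95, or 0.15 in the edgeR fit that blocks on clutch). The cytoglobin gene *cygb1* had 17.3, 14.1 and 15.8 TPM in the mutants, against 16.5, 13.4 and 11.5 TPM in WT, with a log2 fold change of 0.22. The other 3 genes, *ngb*, *cygb2* and *xgb*, had log2 fold changes of -0.07, -0.04 and -0.08.

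Markers of thrombocytes and white blood cells were also looked up. Of all genes tested, 48.2% had a log2 fold change above 0. Of 6 thrombocyte markers tested, 4 lay above 0, with a median of 0.43. The other thrombocyte markers went the other way, the lowest at -0.13. *fgl2a* had 94, 95.3 and 90 counts in the mutants, against 52, 49 and 38 counts in WT, with a log2 fold change of 0.80. *f5*, coagulation factor V, which the liver also makes, had 2136, 1816 and 2606 counts in the mutants, against 1484, 1251 and 732 counts in WT, with a log2 fold change of 0.70. Neither passed in edgeR (adjusted p = 0.84 for *fgl2a* and 0.82 for *f5*). The defining gene *itga2b* had 1 to 10 counts in any library. Of 10 macrophage and neutrophil markers, 8 lay above 0, with a median of 0.24. *lyz*, a lysozyme of these cells, went the other way, at 52.2, 42.2 and 48.4 TPM in the mutants, against 65.6, 67.7 and 68.1 TPM in WT (log2 fold change -0.48, adjusted p = 0.52 by edgeR). Summed, the 10 markers had 64.3, 54.5 and 53.0 CPM in the mutants, against 65.2, 60.5 and 56.8 CPM in WT. The mutant sum was the lower one in every clutch. All these genes, *mb* included, were singled out once their values were known.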
